A study of Mus musculus with 39 samples.

Results

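The lungs of 3 old mice treated with ABT-737 were compared with the lungs of 4 young mice, 7 of the 39 libraries of a series that also holds kidney, liver and skin. The samples were chosen by their labels alone: lung libraries of old mice given ABT-737 (replicates 3, 4 and 5) and of untreated young mice (replicates 1 to 4). ABT-737 is a small molecule that blocks the anti-apoptotic proteins BCL-2, BCL-xL and BCL-w and kills senescent cells, which lean on these proteins. Every mouse, the young controls included, was a C57BL/6 Prf1-/- male lacking perforin, the pore-forming protein with which cytotoxic lymphocytes kill their targets. The young mice were 3 months old. The old mice received ABT-737 at 25 mg/kg from 18 months of age, on consecutive days once a month over 2 months, and were 20 months old at sacrifice. The lungs of 3 further old Prf1-/- mice given the vehicle on the same schedule are used here to set the old level beside many of the values. The comparison asks in what the lung of a treated old mouse still differed from that of a young one. Age, housing history and the injections all differ between the 2 groups and cannot be told apart, and without wild-type lungs nothing here bears on the loss of perforin itself.

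RNA was read at the 3′ ends of transcripts by a bulk form of MARS-seq, and each gene has a read count per library. Lung libraries held 1046508 to 2600092 counts, the lowest being ABT-737 replicate 4. Levels are given as CPM, which sets each count against the TMM-normalized size of its library, and each value is 1 mouse. Prf1 itself, on chromosome 10, had 13 to 22 counts in the young libraries, 14 to 27 in the vehicle-treated and 27, 1 and 68 in ABT-737 replicates 3, 4 and 5, so its 3′ reads do not check the genotype label. Markers of the lung were high in all 7 libraries. Sftpc, the surfactant protein of alveolar type II cells, was at 13992 to 18052 CPM in young and 18595, 15818 and 13942 CPM in ABT-737-treated lungs. Ager, of alveolar type I cells, was at 3287 to 4407 and at 3061, 4686 and 2006 CPM. Foxj1, the master regulator of ciliated cells, was at 56.3 to 108 and at 116, 95.9 and 96.2 CPM. The young libraries resembled each other (Spearman's rho across genes 0.958 to 0.969 between pairs), whereas the ABT-737-treated libraries stood apart from each other (0.793 to 0.889). Replicate 3 was rich in haemoglobin (6.45% of its counts, against 0.174% to 0.356% in young), replicate 4 in adipocyte transcripts, and replicate 5 in transcripts of dividing cells. The summed level of the last was within the range of the vehicle-treated lungs. Replicates 3 and 5 had 18.3% and 20.2% of their counts on transcripts longer than 5000 bases, against 13.6% to 14.2% in young libraries and 11.4% in replicate 4. Rn45s, the precursor of ribosomal RNA, was at 5131 to 9218 CPM in young and 6238 to 13131 CPM in vehicle-treated lungs. In ABT-737 replicates 3, 4 and 5 it was at 32407, 14086 and 23750 CPM, above both ranges. The part of these library differences in the results that follow was not tested unless a value says so.

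Most genes that passed the test between treated old and young lungs were higher in the treated ones. Of 11949 genes tested, 305 (2.55%) passed an adjusted p of 0.05 by the quasi-likelihood test of edgeR (p-values adjusted after Benjamini and Hochberg), 257 (2.15%) higher and 48 (0.402%) lower in the ABT-737-treated lungs. Counts of called genes in the lists below are to be read against these shares of all genes. The log2 fold change (ABT-737 minus young) had a median of 0.07 over all genes, 2.26 over the higher and −1.63 over the lower ones. All 48 lower genes and 164 of the 257 higher ones had values that did not overlap between the groups. Over all genes tested, non-overlapping values were seen in 873 (7.31%) in the higher and 1044 (8.74%) in the lower direction. Of the 93 higher genes that overlapped, 79 did so because replicate 4 was not above every young library. Replicate 5 was the highest treated library for 168 of the 257 higher genes. The count of calls rests on few libraries. Without replicate 5 it was 36, without replicate 4 it was 1399 and without replicate 3 it was 275, of which 164 were among the 305. Leaving out any single young library left 1 call, Dbp, so every other gene described below as risen or fallen passed only with all 4 young lungs in the fit. The vehicle-treated lungs enter only through the shared spread, the filter and the scaling, and without their replicate 3, 4 or 5 the count was 245 (196 of the 305), 564 and 721. The direction of none of the 305 genes that could still be tested changed when a library was left out. In 2 of the higher genes, Apol11b and Lipc, singled out after their values were seen, every young library was at 0 counts, and the treated lungs were at least 25.0-fold and 9.68-fold higher, reckoned against 3 counts over the young group. Between ABT-737 and vehicle no gene passed in the same fit, while 1919 had an unadjusted p under 0.05 and the smallest adjusted p was 0.0847. With the replicate number as a block, 99 genes passed between ABT-737 and vehicle, 25 higher and 74 lower after ABT-737. No label says that same-numbered libraries belong together. With DESeq2 in place of edgeR, 783 genes passed between ABT-737-treated and young lungs.

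**Figure D1:**
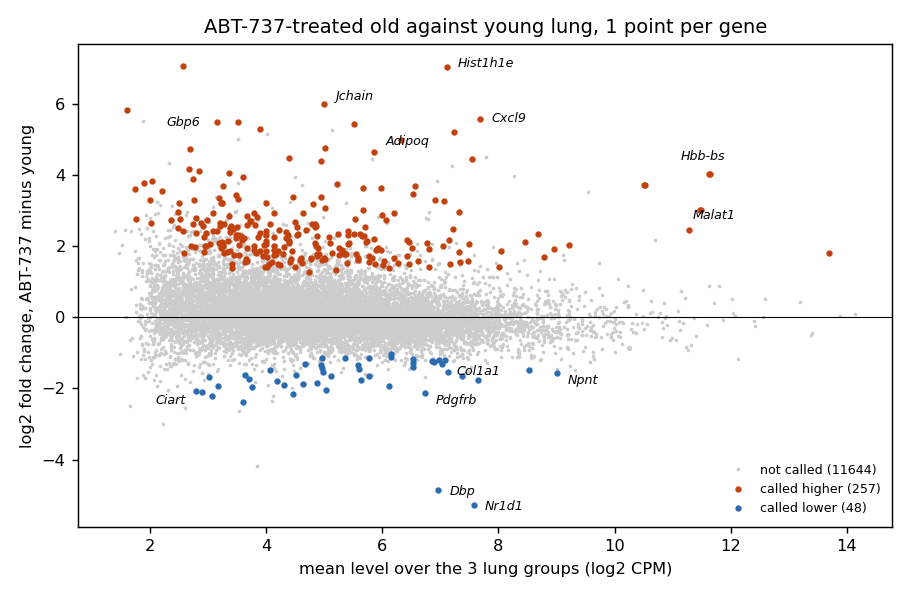
Log2 fold change of each of 11949 genes between ABT-737-treated old (n = 3) and young lungs (n = 4) on the vertical axis, against its mean level over the 3 lung groups in log2 CPM on the horizontal axis, with called genes coloured by direction. Genes called higher outnumber those called lower, 257 to 48, and Dbp and Nr1d1 lie lowest among the called genes.

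Dbp, the gene that passed in every fit, belongs to the circadian clock. Cells keep time of day by a loop in which the activators ARNTL (BMAL1), CLOCK and NPAS2 bind E-box sequences (CACGTG) and switch on their own repressors, among them the PER and CRY proteins, NR1D1 and CIART. NR1D1 (REV-ERBα) represses Arntl through the RORE sequence, and the PAR-bZIP factors DBP, TEF and HLF carry the rhythm to output genes through the D-box, where NFIL3 opposes them. Genes driven by E-boxes peak at another time of day than Arntl, so levels depend on the hour of sacrifice. The 250 bases before the RefSeq start site are printed here for the 2 genes with the deepest fall and for Ciart, the one called clock gene with an E-box in that window, to show where such sites do and do not stand. Capitals mark CACGTG. The sequences are RefSeq's, build GRCm38.p6, 5′ to 3′ on the gene's strand, with Dbp from chr7:45704997-45705246 (plus strand), Nr1d1 from chr11:98775378-98775627 (minus strand) and Ciart from chr3:95882229-95882478 (minus strand).

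Dbp: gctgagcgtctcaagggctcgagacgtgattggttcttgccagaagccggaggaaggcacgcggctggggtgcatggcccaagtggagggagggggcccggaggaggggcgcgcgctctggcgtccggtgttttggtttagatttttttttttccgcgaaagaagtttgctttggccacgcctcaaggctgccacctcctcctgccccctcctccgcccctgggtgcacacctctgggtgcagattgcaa

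Nr1d1: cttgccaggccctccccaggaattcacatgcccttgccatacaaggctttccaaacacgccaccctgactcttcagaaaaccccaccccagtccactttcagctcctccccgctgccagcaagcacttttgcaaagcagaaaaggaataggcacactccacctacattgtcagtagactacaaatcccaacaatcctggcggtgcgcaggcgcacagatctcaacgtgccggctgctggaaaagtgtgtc

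Ciart: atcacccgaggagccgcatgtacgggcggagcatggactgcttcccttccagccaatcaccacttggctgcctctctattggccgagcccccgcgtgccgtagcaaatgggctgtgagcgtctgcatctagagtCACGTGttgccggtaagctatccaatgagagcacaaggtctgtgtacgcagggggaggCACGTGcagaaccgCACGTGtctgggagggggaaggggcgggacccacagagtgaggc

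The E-boxes of Ciart begin 116, 58 and 44 bases before the start site. Promoters were found for 16 of the 19 clock genes tested and for all 7 that were called. Searched on both strands, the E-box CACGTG stood in 1 of these 7 windows, and in 6.02% of 32851 mouse promoters. The D-box TTATGTAA and the RORE half-site AGGTCA stood in 0 of the 7, and in 0.819% and 14% of all promoters. A missing motif says only that these letters are not in the window.

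Of the 19 clock genes tested, 4 fell (Dbp, Nr1d1, Hlf and Ciart), 3 rose (Arntl, Npas2 and Clock) and 12 did not pass. Of all genes tested, 0.402% fell and 2.15% rose. Dbp, on chromosome 7 (45705247 to 45710203 in mm10), was at 283, 355, 412 and 358 CPM in the young lungs, at 12.2, 16.9 and 8.5 in the ABT-737-treated and at 11.4, 12 and 9.35 in the vehicle-treated. Each old lung was far below each young one, and the log2 fold change was −4.86 ± 0.32 (SE, adjusted p = 4.72e-06) with ABT-737 and −5.01 ± 0.32 (adjusted p = 2.79e-06) with vehicle. Dbp passed under every alternative tried, with fold changes between −5.11 and −4.62. Its annotated span overlaps that of Sphk2. Nr1d1, on chromosome 11 (98767932 to 98775377), was at 478 to 657 CPM in young lungs and at 16.1, 27.4 and 2.24 CPM after ABT-737 (log2 fold change −5.28 ± 0.79, adjusted p = 0.0231). In the vehicle-treated lungs Nr1d1 was at 3.35, 22.3 and 1.87 CPM. It overlaps Thra, from which its reads cannot be told apart without strand.

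Hlf fell from 56.7 to 64.7 CPM in young to 29.6, 14.8 and 22.4 CPM (log2 fold change −1.43 ± 0.29, adjusted p = 0.0322), while the vehicle-treated lungs were at 12.7, 11.6 and 7.11 CPM. The ranges of both old groups lay below the young range. Ciart was at 11.3 to 21.3 CPM in young and at 1.93, 4.22 and 4.47 CPM after ABT-737 (−2.09 ± 0.45, adjusted p = 0.0384). The activators moved the other way. Arntl, at 0.490 to 2.09 CPM in young, stood at 9.02, 4.22 and 16.1 CPM (3.31 ± 0.58, adjusted p = 0.0231) and at 8.23 to 11.4 CPM with vehicle. Its partner Npas2 had 3 counts over the 4 young libraries and 26 over the treated ones, a ratio of 13.3 per normalized count (95% exact interval 4.06 to 68.4, counting error only). Clock, the other partner, was at 7.28 to 11.1 CPM in young and at 24.5, 12.6 and 35.8 CPM after ABT-737 (1.42 ± 0.35, adjusted p = 0.0498). The repressor Per1 (54.1 to 66.2 CPM against 120 to 246 in young) and Nfil3 (10.5 to 21.9 against 3.80 to 6.38) did not overlap between groups, with adjusted p of 0.0562 and 0.0545. Without replicate 5 the calls on the list dropped to 2, Dbp and Nr1d1, and without replicate 3 to 3 fallen and 1 risen. The labels give no hour of sacrifice, and hour and age group cannot be told apart here. In kidneys from the same age groups Dbp was at 361 to 439 CPM in young and 24.1 to 26.3 CPM after ABT-737, and Nr1d1 at 107 to 161 and 5.27 to 8.94 CPM.

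**Figure D2:**
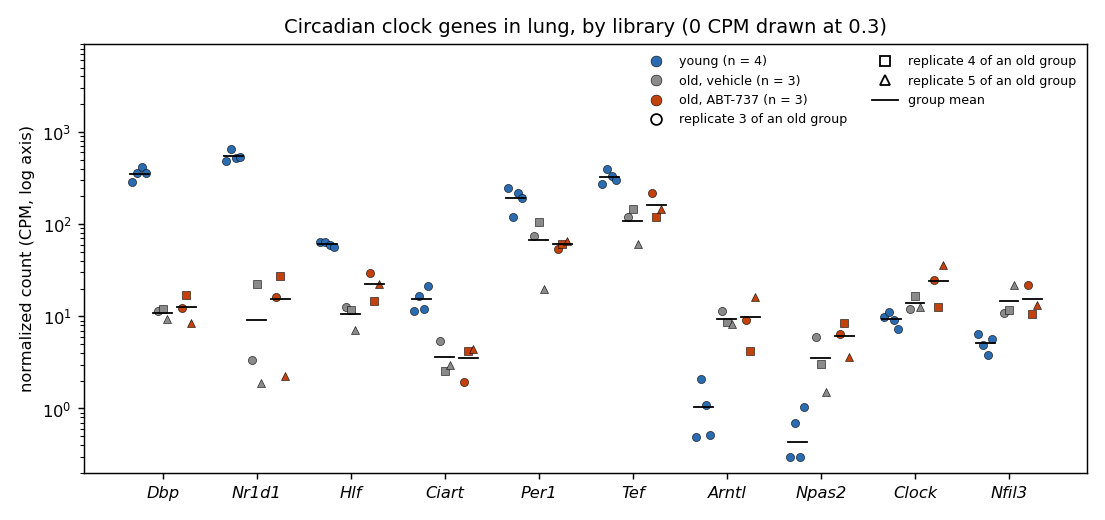
CPM on a log axis of clock genes in each lung library, by group (young n = 4, vehicle-treated old n = 3, ABT-737-treated old n = 3), with a line at each group mean. Dbp and Nr1d1 lie far below the young range in all 6 old lungs, and Arntl lies above it.

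Transcripts of red blood cells and platelets made the next clear group. The mice were perfused before the tissues were taken, a step that washes blood from the vessels, and how far it cleared each lung was not measured. The megakaryocytes that shed platelets can lodge in lung capillaries. In bulk RNA, more cells of a type and more RNA per cell cannot be told apart, here or in any result below. All 8 red blood cell genes tested rose, with a median log2 fold change of 3.73 (vehicle against young 2.62). Their summed level was 1823 to 3604 CPM in young, 69491, 6725 and 12899 CPM after ABT-737 and 3533 to 25102 CPM with vehicle. The β-globin gene Hbb-bs was at 254 to 592 CPM in young and at 14767, 1110 and 3199 CPM in treated lungs (4.04 ± 0.79, adjusted p = 0.0288). Replicate 3 was by far the highest. Its annotated span nearly coincides with that of Hbb-b1, and Hbb-bt with Hbb-b2, so these 4 genes count as 2 measurements. Alas2, the first enzyme of haem synthesis in red cell precursors, was at 5.40 to 10.3 CPM in young and at 244, 11.6 and 42.5 CPM (3.63 ± 0.82, adjusted p = 0.0404). Slc4a1, the anion exchanger of the red cell membrane, had 3 counts over the young libraries and 60 over the treated ones, a ratio of 30.6 (95% exact interval 9.98 to 152). Without replicate 3 none of the 8 passed (median 2.16), and without replicate 5 only 4 did.

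Platelet genes rested less on one mouse. Of 10 tested, 6 rose and 9 had non-overlapping higher values, against 2.15% and 7.31% of all genes. The 10 genes had a median log2 fold change of 2.32 (vehicle 1.45). Their summed level was 193 to 241 CPM in young, 1113, 914 and 567 CPM after ABT-737 and 197 to 680 CPM with vehicle. Ppbp, a platelet chemokine precursor, was at 10.4 to 23.1 CPM in young and at 136, 151 and 94.4 CPM in treated lungs (2.95 ± 0.51, adjusted p = 0.0231). Gp9, a part of the von Willebrand factor receptor, was at 4.88 to 8.83 CPM and at 82.4, 32.7 and 49.2 CPM (3.09 ± 0.53, adjusted p = 0.0231). Itga2b, the platelet integrin αIIb, was at 9.81 to 16.1 and at 85.0, 63.2 and 44.3 CPM (2.34 ± 0.40, adjusted p = 0.0231). The treated and young ranges lay well apart for these 3 genes. Nrgn, also carried by platelets, was at 44.5 to 58.1 CPM in young and at 433, 289 and 137 CPM (2.50 ± 0.47, adjusted p = 0.0263). In the vehicle-treated lungs Nrgn was at 172, 130 and 32.2 CPM, and its vehicle-minus-young value was 1.13 ± 0.46 (adjusted p = 0.118). Pf4, platelet factor 4, was at 33.8 to 41.6 CPM in young and at 148, 181 and 99.8 CPM (1.95 ± 0.40, adjusted p = 0.0322). Without replicate 3 or without replicate 5, 5 of the list passed.

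Some lymphocyte genes, most of them of the B lineage, were above the young level. Mature B cells carry CD20 (Ms4a1), and once activated they become plasma cells, which fold and secrete antibody. Of 11 plasma cell genes tested 8 rose (median log2 fold change 2.10, vehicle against young 2.48), of 18 B cell genes 6 rose (median 1.74, vehicle 2.0), of 26 T cell genes 2 rose (median 1.52, vehicle 3.33), and of 14 genes of cytotoxic lymphocytes 0 did (median 1.43, vehicle 3.77). Of all genes tested, 2.15% rose. Both old groups were compared with the same young libraries, so these medians are not independent. Jchain, which joins antibody units into polymers, was at 0.695 to 1.09 CPM in young and at 12.9, 2.11 and 178 CPM after ABT-737 (6.01 ± 1.11, adjusted p = 0.0249), with 23.2 to 44.3 CPM in vehicle-treated lungs. Replicate 5 was the highest of all 10 lungs for this gene, and without it the adjusted p was 0.0862. Derl3, of endoplasmic reticulum quality control, was at 6.26 to 10.9 CPM in young and at 13.5, 70.6 and 75.6 CPM (2.78 ± 0.48, adjusted p = 0.0231). Mzb1, a chaperone of antibody secretion, was at 15.3 to 21.7 and at 35.4, 226 and 186 CPM (2.98 ± 0.48, adjusted p = 0.0231), and passed without any one treated lung. For Derl3 and Mzb1 replicate 3 was the lowest treated library yet above each young one. The summed level of the plasma cell list was 928 to 1001 CPM in young and 826, 1418 and 1360 CPM in replicates 3, 4 and 5, so that replicate 3 lay below the young range. Creld2 rose too (26.4 to 33.1 against 59.3, 86.4 and 128 CPM).

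Among B cell genes, Ms4a1 was at 5.56 to 8.83 CPM in young and at 9.02, 48.5 and 53.7 CPM after ABT-737 (2.34 ± 0.53, adjusted p = 0.0404). Pou2af1, a B cell coactivator, was at 8.34 to 12.8 and at 13.5, 110 and 75.6 CPM (2.54 ± 0.54, adjusted p = 0.0353). Bank1, an adaptor of the B cell receptor, was at 1.09 to 5.72 and at 6.44, 15.8 and 38.0 CPM (2.56 ± 0.61, adjusted p = 0.0450). Cd72, a B cell coreceptor, overlapped with young in replicate 3 (5.15 CPM, against 3.26 to 7.28 in young, with 31.6 and 125 CPM in the others). Replicate 3 thus lay at or just past the edge of the young range, and its summed B cell level of 228 CPM was below the young range of 236 to 378. The T cell genes that rose were Cd3e, a chain of the T cell receptor complex (3.80 to 10.9 CPM in young, 19.3, 32.7 and 53.7 after ABT-737, 53.7 to 190 with vehicle), and Pdcd1, the inhibitory receptor PD-1 (0 to 1.04, then 0.644, 5.27 and 13.0, and 21.5 to 32.2 with vehicle). Their log2 fold changes were 2.34 ± 0.50 (adjusted p = 0.0359) and 3.45 ± 0.84 (adjusted p = 0.0464). Nkg7, of cytotoxic granules, was at 25.7 to 43.4 CPM in young, at 63.1, 79.0 and 252 after ABT-737 and at 220 to 1347 with vehicle (1.93 ± 0.58, adjusted p = 0.0827). Without replicate 5, 1 plasma cell gene, 0 B cell genes and 0 T cell genes passed. Without replicate 3, 8, 13 and 6 did, and without replicate 4, 7, 7 and 6.

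**Figure D3:**
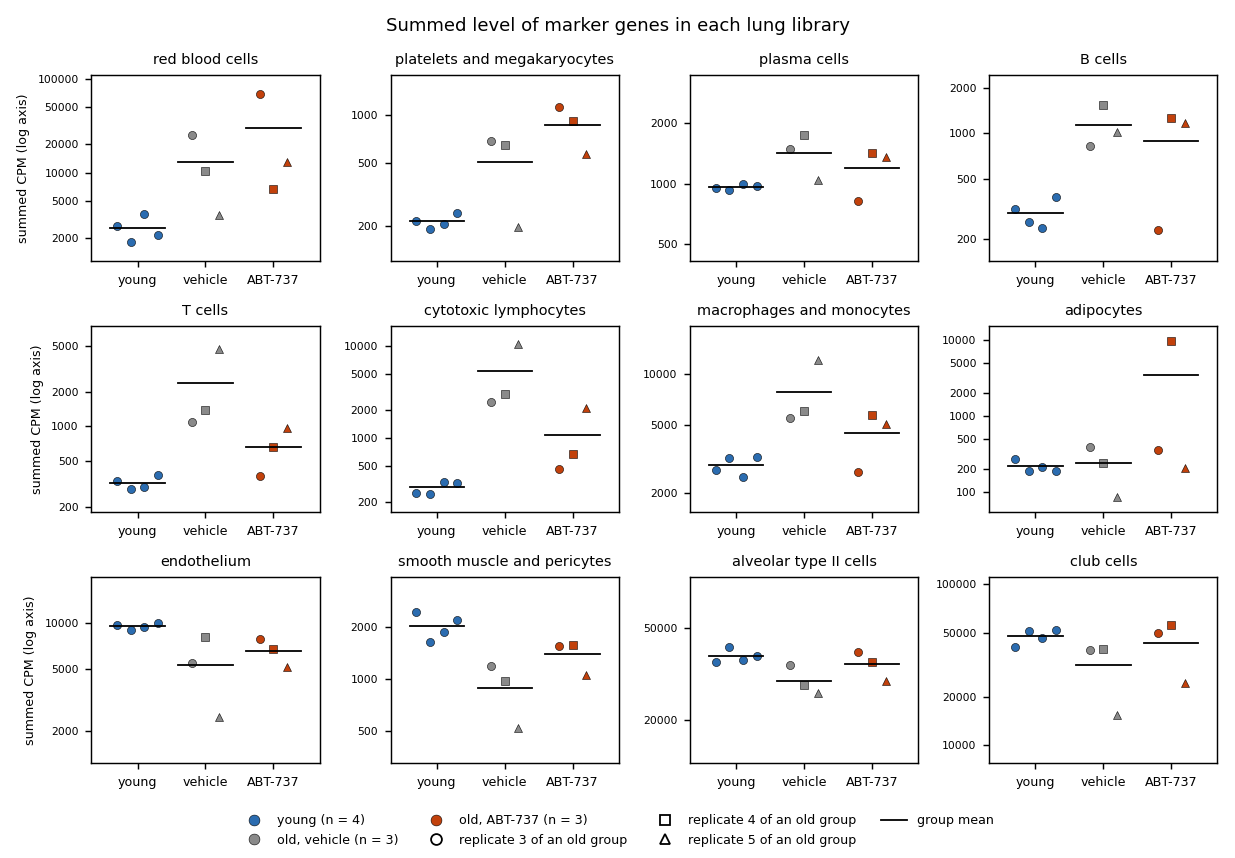
Summed CPM of marker genes on a log axis for 12 cell types in each lung library, by group (young n = 4, vehicle-treated old n = 3, ABT-737-treated old n = 3), with a line at the group mean and the mark showing the replicate number in the old groups. Red blood cell, platelet and T cell sums of all 3 treated lungs except the T cell sum of replicate 3 lie above the young range, and the adipocyte sum is high only in ABT-737 replicate 4.

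Some myeloid genes rose, where 2.15% of all genes did. Of 26 genes of macrophages and monocytes 6 rose (median 1.32, vehicle 2.28), and of 18 complement genes 3 rose (median 1.14, vehicle 1.02). C1qa and C1qc encode chains of C1q, which starts the classical complement pathway and is made by tissue macrophages. C1qc was at 60.2 to 85.8 CPM in young, at 89.5, 469 and 557 after ABT-737 and at 528 to 1198 with vehicle (2.35 ± 0.48, adjusted p = 0.0328). C1qa was at 115 to 177 CPM in young and at 193, 712 and 866 CPM after ABT-737 (2.03 ± 0.46, adjusted p = 0.0404). Both stayed just above the young range in replicate 3. Cfb, of the alternative pathway, was at 36.3 to 81.4 and at 118, 238 and 227 CPM (1.87 ± 0.46, adjusted p = 0.0485), against 241 to 1041 with vehicle. Fcgr4, an activating Fc receptor, was at 8.34 to 10.4 CPM in young, at 16.7, 51.6 and 219 after ABT-737 and at 136 to 544 with vehicle (3.29 ± 0.69, adjusted p = 0.0339). Spp1 (osteopontin) was at 23.4 to 41.8 and at 63.1, 91.7 and 137 CPM (1.6 ± 0.35, adjusted p = 0.0384). Mrc1, the mannose receptor of alveolar macrophages, was at 15.7 to 21.6 and at 36.7, 34.8 and 69.8 CPM (1.32 ± 0.32, adjusted p = 0.0471). Of the 18 alveolar macrophage genes 2 passed, the other being Fabp4, which adipocytes make as well. The list's median was 0.42 (vehicle 0.34). Its summed level was 1604 to 1916 CPM in young and 2060, 6748 and 1048 CPM in replicates 3, 4 and 5. Replicate 5, the highest for Mrc1, thus lay below the young range for the list. No gene of neutrophils (8 tested) or dendritic cells (12 tested) passed. Without replicate 5, 0 macrophage and monocyte and 0 complement genes passed.

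Chemokines gave some of the largest differences. Of 35 cytokines and chemokines 5 rose and 2 fell (median 1.14, vehicle 1.81), where 2.15% and 0.402% of all genes did. Cxcl9, an interferon-γ-induced attractant of T cells and one of the genes the study names, was at 1.96 to 3.48 CPM in young, at 12.2, 17.9 and 316 after ABT-737 and at 231 to 996 with vehicle (5.59 ± 1.06, adjusted p = 0.0263). Cxcl13, which draws B cells into follicles, was at 2.08 to 5.40 CPM in young, at 14.2, 269 and 98.9 after ABT-737 and at 47.0 to 175 with vehicle (5.0 ± 0.78, adjusted p = 0.0231). Ccl8, a monocyte attractant, was at 2.17 to 6.87 and at 12.9, 114 and 319 CPM (5.21 ± 0.91, adjusted p = 0.0231). These 3 genes were among the 12 highest, which were picked for groups that do not overlap. Replicate 3 was the lowest treated lung for each. Ccl20 and Cxcl5, ligands of CCR6 and CXCR2, each had 3 counts over the young libraries and 46 and 30 over the treated ones, ratios of 23.4 (95% exact interval 7.54 to 118) and 15.3 (4.76 to 78.3). The chemokines that fell were Cxcl14, made by epithelium and stroma (327 to 452 CPM in young, 162, 90.6 and 91.3 after ABT-737, 84.2 to 121 with vehicle, −1.76 ± 0.29, adjusted p = 0.0231), and Cx3cl1, the ligand of CX3CR1 (34.8 to 60.3 against 20.0, 22.1 and 21 CPM, −1.15 ± 0.27, adjusted p = 0.0413). Without replicate 5 Cxcl13 and Cxcl5 still passed (adjusted p = 0.0250 and 0.0383) and Cxcl9 and Ccl8 did not (0.146 and 0.0666).

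Of 31 interferon-stimulated antiviral genes 4 rose (median 0.83, vehicle 1.62), and of 16 guanylate-binding proteins and immunity-related GTPases 1 rose (median 1.6, vehicle 3.05). Of all genes tested 2.15% rose, and 1 call among 16 genes says little about a list. Rsad2 (viperin) was at 2.78 to 6.24 CPM in young and at 39.9, 13.7 and 27.3 CPM after ABT-737 (2.68 ± 0.42, adjusted p = 0.0231), close to the 23.9 to 45.0 CPM of vehicle-treated lungs. Rsad2 passed without any one treated lung. Trim30a was at 0.981 to 5.43 and at 8.37, 14.8 and 28.2 CPM (2.71 ± 0.56, adjusted p = 0.0328). Zbp1, a sensor of Z-form nucleic acid, and Ifi27l2a also rose, with replicate 3 inside the young range for both (15.5 and 169 CPM, against 8.32 to 20.9 and 109 to 170). Gbp6 had 2 counts over the young libraries and 90 over the treated ones, a ratio of 68.8 (95% exact interval 18.5 to 577), with replicate 5 at 36.2 CPM and the others at 4.51 and 2.11. H2-M2, a nonclassical class I gene, was at 1.09 to 2.08 CPM in young, at 9.66, 10.5 and 83.2 after ABT-737 and at 30.9 to 102 with vehicle (4.39 ± 0.81, adjusted p = 0.0249). C130026I21Rik, on chromosome 1, had 3 counts over the young libraries and 98 over the treated ones, a ratio of 50.0 (95% exact interval 16.6 to 246). The fixed antigen presentation lists gave no call. They hold neither H2-M2 nor the class I entry annotated as H2-L. The H2-L entry was called and is named here after its values were seen (0.543 to 1.39 CPM in young and 16.1, 4.22 and 30.9 CPM after ABT-737). Whether its reads came from other class I genes was not tested. Of 11 genes of class II and 17 of class I presentation none passed, with medians of 0.89 and 0.77 and vehicle medians of 1.6 and 1.88. Summed class II levels were 13919 to 18090 CPM in young, 16129, 35242 and 23054 CPM after ABT-737 and 22711 to 37563 CPM with vehicle. Without replicate 5, 1 of the antiviral genes and 0 of the guanylate-binding list passed.

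Some proliferation genes rose, 5 of the 39 cell cycle genes tested (2.15% of all genes did), with a median of 1.0 over the list (vehicle 1.65). Non-overlapping higher values were seen in 11 of the 39, against 7.31% of all genes. The summed level was 465 to 523 CPM in young, 905 to 1170 CPM with vehicle and 444, 627 and 924 CPM in ABT-737 replicates 3, 4 and 5. The sum of replicate 3 thus lay below the young range, and that of replicate 5 within the vehicle range. Top2a, the topoisomerase of dividing cells, was at 4.41 to 7.65 CPM in young and at 20.6, 8.43 and 77.0 CPM after ABT-737 (2.54 ± 0.55, adjusted p = 0.0384). Mki67, the proliferation antigen Ki-67, was at 0.981 to 3.48 and at 21.3, 2.11 and 117 CPM (4.49 ± 0.87, adjusted p = 0.0277), so that replicate 4 lay within the young range. Cenpe, a kinetochore motor, was at 0 to 2.78 and at 7.73, 3.16 and 17.9 CPM (2.96 ± 0.68, adjusted p = 0.0404). Ccnb1, cyclin B1, had 2 counts over the young libraries and 23 over the treated ones, a ratio of 17.6 (95% exact interval 4.35 to 154). With vehicle, Top2a was at 36.9 to 57.6 CPM, Mki67 at 11.2 to 20.1, Cenpe at 5.15 to 6.71 and Ccnb1 at 4.86 to 7.38. Replicate 5 lay above the vehicle range for Top2a, Mki67 and Cenpe and within it for Ccnb1 (6.71 CPM). Top2a, Mki67 and Cenpe have long transcripts (5179, 10059 and 7765 bases) and were lowest in replicate 4 among treated lungs. Ccnb1, at 2305 bases, was lowest in replicate 3. Without replicate 5 no gene of the list passed.

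Senescence regulators and the drug's targets gave no call. None of 24 CDK inhibitors and senescence regulators passed (median 0.31, vehicle 0.33). Cdkn1a, which encodes p21, was at 312 to 478 CPM in young, 823, 1015 and 324 after ABT-737 and 254 to 1509 with vehicle, with overlapping groups. Cdkn2b, which encodes p15, was at 9.81 to 19.5 CPM in young and at 30.3, 15.8 and 36.2 after ABT-737 (0.88 ± 0.38, adjusted p = 0.203). Cdkn2a was too low to test, with 0, 0, 1 and 0 counts in young, 1, 1 and 10 after ABT-737 and 4, 9 and 18 with vehicle. None of 17 BCL-2 family genes passed (median 0.06, vehicle 0.49). Bcl2l1, which encodes BCL-xL, was at 143 to 277 CPM in young and at 214, 256 and 155 after ABT-737. Mcl1, which ABT-737 does not target, was at 291 to 407 and at 377, 260 and 358 CPM. Of 44 genes of the senescence-associated secretory phenotype 4 rose and 1 fell, where 2.15% and 0.402% of all genes did. The median of this list was 0.47 (vehicle 0.35), so the treated median was no nearer the young level than that of vehicle. The risen genes were the chemokines Ccl8, Ccl20 and Cxcl5 and the macrophage product Spp1. The fallen one was Igfbp3, a binding protein of insulin-like growth factors, at 85.8 to 113 CPM in young, 25.1, 36.9 and 23.3 after ABT-737 and 13.8 to 33.5 with vehicle (−1.75 ± 0.32, adjusted p = 0.0249, and 0.0873 without replicate 5). Of the genes the study names, 8 could be tested and Cxcl9 passed. The study names them from other measurements on its mice, several of these on older females. They are not treated here as independent evidence. Ccl5 was at 145 to 215 CPM in young, 310, 514 and 1620 after ABT-737 and 1712 to 7619 with vehicle (2.18 ± 0.56, adjusted p = 0.0556). Cxcl10 (1.93, 5.27 and 90.8 CPM against 1.09 to 2.09, adjusted p = 0.0697), Ccl2 (0.644, 5.27 and 12.5 against 0 to 0.520, adjusted p = 0.0940), Tnf (adjusted p = 0.385) and Il1rn (adjusted p = 0.399) did not pass either.

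Few epithelial genes passed. No gene of alveolar type II cells (17 tested, median −0.27), alveolar type I cells (16, median −0.09) or club cells (19, median −0.16) passed, and the vehicle medians were −0.45, −0.83 and −0.35. Without replicate 5 the medians of the last 2 lists were 0.02 and 0.08. Scgb1a1, the secretory product of club cells, was at 15074 to 21760 CPM in young and at 21501, 28667 and 10748 CPM in treated lungs. Of 23 ciliated cell genes 3 rose (median 0.43, vehicle −0.14), where 2.15% of all genes did. All 3 are long transcripts of the cilium's moving machinery. Dnah6, a dynein heavy chain, was at 10.4 to 19.1 CPM in young and at 49.6, 30.6 and 42.1 CPM (1.41 ± 0.33, adjusted p = 0.0413). Dnah5 and Spag17 were inside the young range in replicate 4 (7.38 and 4.22 CPM) and above it in replicates 3 and 5 (37.4 and 54.6, and 18.0 and 23.3 CPM). With vehicle, Dnah6 was at 8.60 to 17.6 CPM, Dnah5 at 2.62 to 10.1 and Spag17 at 3.74 to 7.29. None of the ciliated genes passed without replicate 3, without replicate 5 or with the trend of each library with transcript length taken out.

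Vessel and stromal genes were among those that stayed below young. No gene of the 27 on the endothelial list passed (median −0.58, vehicle −0.90), and 9 had non-overlapping lower values, where 8.74% of all genes did. The endothelial sum was 9010 to 9895 CPM in young and 7803, 6777 and 5199 CPM after ABT-737. Vcam1, the 1 of 7 endothelial adhesion molecules to pass, rose from 13.0 to 25.0 CPM in young to 35.4, 56.9 and 131 CPM (1.91 ± 0.40, adjusted p = 0.0340, and 0.192 without replicate 5). Pdgfb, the endothelial ligand that recruits pericytes, was at 133 to 185 CPM in young and at 66.3, 53.7 and 60.0 after ABT-737 (−1.40 ± 0.23, adjusted p = 0.0231), with 53.2 to 62.4 with vehicle. Its receptor Pdgfrb, a marker of pericytes, was at 153 to 347 CPM in young, 29.0, 92.7 and 40.7 after ABT-737 and 22.8 to 47.6 with vehicle (−2.13 ± 0.44, adjusted p = 0.0328). Ligand and receptor both lay wholly below the young range in the 6 old lungs. Pdgfrb was the 1 of 16 smooth muscle and pericyte genes that passed (median −0.51, vehicle −1.30), where 0.402% of all genes fell. It did not pass without replicate 3 (adjusted p = 0.0631) or without replicate 5 (0.125).

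Single genes of stroma and matrix fell as well. Hhip, the decoy receptor that limits hedgehog signalling, was at 122 to 174 CPM in young, 40.6, 60.1 and 18.8 after ABT-737 and 7.48 to 32.6 with vehicle (−1.94 ± 0.44, adjusted p = 0.0404). Foxf2, a mesenchymal transcription factor, was at 65.1 to 74.3 CPM in young, 29.0, 28.5 and 10.3 after ABT-737 and 6.73 to 18.8 with vehicle (−1.64 ± 0.38, adjusted p = 0.0413). Npnt (nephronectin), an integrin ligand of basement membranes, was at 738 to 1216 CPM in young and at 485, 271 and 272 CPM (−1.58 ± 0.39, adjusted p = 0.0480), above the 88.7 to 265 CPM of vehicle-treated lungs. Vtn (vitronectin) was at 50.8 to 100.06 CPM in young and at 20.0, 20.0 and 11.6 CPM (−2.04 ± 0.50, adjusted p = 0.0475). Of 22 collagen genes 1 fell (median −0.34, vehicle −1.04), where 0.402% of all genes did. It was Col1a1, a chain of type I collagen, which fell from 179 to 247 CPM in young to 83.1, 93.8 and 105 CPM (−1.20 ± 0.28, adjusted p = 0.0413). Of 28 elastic fibre and matrix proteins 1 rose, where 2.15% of all genes did. It was the proteoglycan decorin (Dcn), at 118 to 163 CPM in young, 351, 569 and 244 after ABT-737 and 217 to 254 with vehicle (1.42 ± 0.29, adjusted p = 0.0328). Dcn passed without any one treated lung. Hhip, Foxf2, Npnt, Vtn and Col1a1 did not pass without replicate 5 (adjusted p = 0.157, 0.157, 0.197, 0.213 and 0.120). Without replicate 3, Hhip, Vtn and Col1a1 did not pass either (0.0729, 0.0753 and 0.0900), nor did Npnt without replicate 4 (0.0524).

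Other genes among the 12 with the deepest falls were Kdelr3, a retrieval receptor of the endoplasmic reticulum (19.5 to 32.0 CPM in young, 6.44, 7.38 and 2.24 after ABT-737), Rflna (17.2 to 18.8 against 5.15, 3.16 and 3.13 CPM), Fam162b (24.5 to 67.3 against 10.9, 7.38 and 10.3), Fam171a2 (9.77 to 16.7 against 1.93, 4.22 and 3.58), Ccbe1, which lymphatic growth needs (14.7 to 35.3 against 6.44, 6.32 and 6.71), and Srpx2 (15.3 to 23.3 against 6.44, 5.27 and 2.68). Their log2 fold changes lay between −2.39 (Kdelr3) and −1.94 (Srpx2), and their adjusted p between 0.0231 and 0.0462. The rule that picked these 6 asks for groups that do not overlap, so their lack of overlap is no result. None of them passed without replicate 5. The mesothelial gene Upk3b was at 1.04 to 7.65 CPM in young and at 45.7, 11.6 and 15.2 CPM in treated lungs (2.50 ± 0.60, adjusted p = 0.0462), the only one of 9 mesothelial genes to pass, and did not pass without replicate 3 (adjusted p = 0.171) or without replicate 5 (0.0862).

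Adipocyte genes passed through a single lung. Of 10 tested 4 passed (median 4.12, vehicle −0.04). The summed level of the list was 9744 CPM in replicate 4 and at most 397 CPM in the 9 other lungs. Adipoq (adiponectin) was at 450 CPM in replicate 4, 18.7 and 8.5 in replicates 3 and 5 and 2.60 to 8.34 in young (4.65 ± 1.13, adjusted p = 0.0466, and 0.367 without replicate 4). Cidea, a lipid droplet protein, was at 247 CPM in replicate 4, 12.2 and 3.58 in the others and 2.08 to 3.48 in young. Fabp4 was at 1366, 45.1 and 34.0 CPM against 11.4 to 30.9, and Thrsp at 640, 32.2 and 29.5 CPM against 13.5 to 20.6. No adipocyte gene passed without replicate 4. The fatty acid synthesis genes Elovl6 and Scd1 (2 of 23 on the lipid synthesis list) were likewise highest in replicate 4, at 46.4 and 1446 CPM against 0.543 to 3.48 and 165 to 269 in young, and did not pass without it (adjusted p = 0.0576 and 0.0727). Of 11 exocrine pancreas genes 1 rose, the trypsinogen gene Prss2 (12.5 to 17.2 CPM in young, 43.8, 62.2 and 30.0 after ABT-737, 1.62 ± 0.37, adjusted p = 0.0413), whose span lies in that of Tcrb and which did not pass without replicate 3 or without replicate 5 (adjusted p = 0.0641 and 0.0564). No gene of fatty acid oxidation (23 tested), oxidative phosphorylation (50), cytosolic ribosomal proteins (73), antioxidant defence (21), immediate early response (17), matrix proteases and their inhibitors (22), hepatocytes (7), Schwann cells (5), thymocytes (3) or the sex-linked list (3) passed.

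Chaperones moved in both directions. Of 18 tested 4 rose and 1 fell (median −0.02), where 2.15% and 0.402% of all genes did. The endoplasmic reticulum chaperones Hsp90b1 (GRP94) and Pdia4 rose, Hsp90b1 from 170 to 197 CPM in young to 397, 348 and 1052 CPM (1.70 ± 0.37, adjusted p = 0.0384) and Pdia4 from 12.3 to 18.1 to 61.2, 49.5 and 137 CPM (2.44 ± 0.40, adjusted p = 0.0231). Pdia4 was at 17.6 to 49.0 CPM in vehicle-treated lungs (0.95 ± 0.41 against young, adjusted p = 0.134). Hsp90aa1 and Hspa4l rose as well. Hspa4l was inside the young range in replicate 4 (16.9 CPM, against 12.5 to 17.4) and at 64.4 and 55.5 CPM in the others. The stress-inducible cytosolic Hspa1a (HSP70) fell from 32.2 to 65.2 CPM in young to 20.6, 11.6 and 8.5 CPM, with 7.48 to 20.1 CPM in vehicle-treated lungs (−1.87 ± 0.44, adjusted p = 0.0417, and 0.189 without replicate 5). Without replicate 5 no gene of the list passed, with adjusted p of 0.175 for Hsp90b1, 0.0525 for Pdia4, 0.258 for Hsp90aa1 and 0.174 for Hspa4l. Hsp90aa1 and Hspa4l did not pass without replicate 3 either (0.101 and 0.104).

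A further set of called genes was high in replicates 3 and 5 and at or near the young level in replicate 4, among them long and nuclear transcripts. Hist1h1e, a linker histone gene on chromosome 13 (23621777 to 23622558), had the highest fold change of the named genes, at 1.56 to 4.41 CPM in young and at 334, 7.38 and 876 CPM after ABT-737 (7.04 ± 1.01, adjusted p = 0.0231), with 5.37 to 12 CPM in vehicle-treated lungs. Messages of such histone genes mostly lack a poly(A) tail. Malat1, a long noncoding RNA kept in the nucleus, was at 883 to 1259 CPM in young, 6570, 823 and 8924 after ABT-737 and 856 to 1312 with vehicle (2.47 ± 0.55, adjusted p = 0.0401). Trip11 and Golgb1, large Golgi proteins, were at 110 and 420 CPM in replicate 3, 168 and 435 in replicate 5 and 6.32 and 116 in replicate 4, where young lungs were at 5.72 to 8.34 and 99.1 to 120. Ttn, the giant muscle protein titin and the 1 of 16 muscle genes to pass, was at 240, 14.8 and 203 CPM against 17.4 to 22.9. In each of these genes except Hist1h1e, replicate 4 did not lie above the young range.

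Long transcripts were more frequent among the genes called higher. Transcripts over 5000 bases were 17.8% of the genes tested, 36.6% of those called higher (94 of 257) and 16.7% of those called lower (8 of 48). Among genes over 7 kilobases 6.63% were called higher, against 1.61% of those of 1 to 2 kilobases. For the longest class the median log2 difference from the young mean, with 1 CPM added, was 0.47 in replicate 3, −0.31 in replicate 4 and 0.60 in replicate 5. With the trend of each library with length taken out, 231 genes passed, 222 of them among the 305. The part of RNA quality or handling in this trend was not tested.

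**Figure D4:**
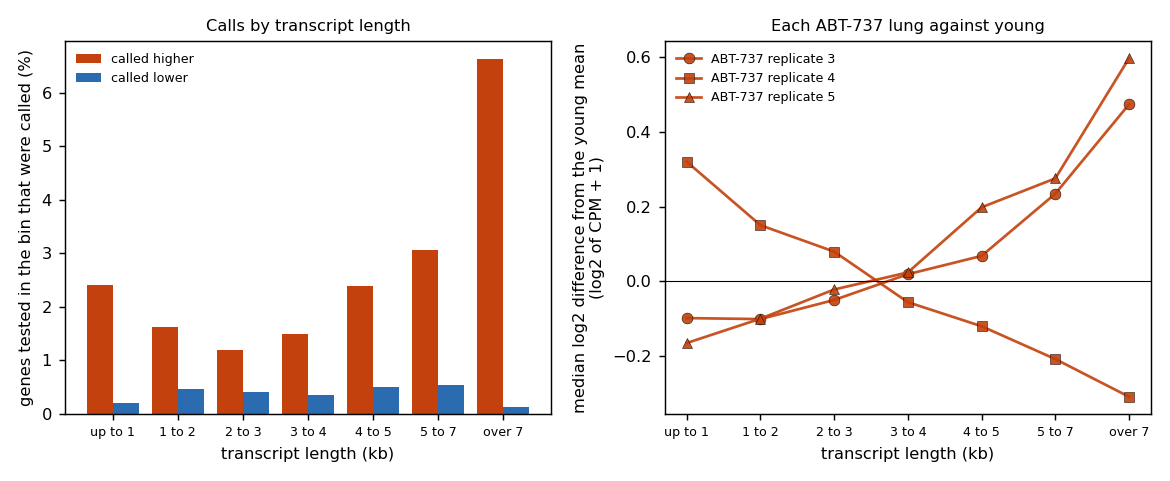
Percentage of the tested genes called higher or lower (left, bars) and median log2 difference of each ABT-737-treated lung library from the young mean, in log2 of CPM + 1 (right, lines), by class of transcript length in kilobases. In the longest class 6.63% were called higher, and replicates 3 and 5 reach 0.47 and 0.60 where replicate 4 reaches −0.31.

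The same contrast in kidney, with 4 young and 3 ABT-737-treated libraries, sets the lung values beside those of another tissue of the same design. Of 13020 genes, 18 (0.138%) had a difference between ABT-737-treated and young mice that was not the same in both tissues (edgeR's quasi-likelihood test of the interaction, adjusted p under 0.05), 9 with the lung value higher and 9 with it lower, and 1642 had an unadjusted p under 0.05. Of the 305 lung calls, 11 were among the 18. Rsad2 rose in lung (2.67 ± 0.36 in this joint fit), while in kidney it was at 42.6 to 55.6 CPM in young and 44.7 to 71.6 CPM after ABT-737 (interaction 2.48 ± 0.45, adjusted p = 0.0311). Slc4a1 rose in lung, with 50 of its 60 treated counts in replicate 3. In the lung fit by edgeR it did not pass without that replicate (adjusted p = 0.186). In kidney it was at 40.6 to 48.4 CPM in young and 27.9 to 34.8 CPM after ABT-737 (interaction 5.28 ± 1.03, adjusted p = 0.0328). Whether the same cells carry it in both tissues was not tested. Lpl, the lipase that frees fatty acids from lipoproteins, had log2 fold changes of 1.67 ± 0.27 in lung and −0.37 ± 0.26 in kidney (interaction 2.04 ± 0.38, adjusted p = 0.0311). Man1a (interaction 1.72 ± 0.32), Dnajc25 (1.83 ± 0.35) and Myo5a (3.14 ± 0.61) were further lung rises with no such kidney value.

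On the lower side, Spns2, the exporter of the lymphocyte guide sphingosine-1-phosphate, had log2 fold changes of −1.23 ± 0.21 in lung and 0.64 ± 0.20 in kidney (interaction −1.87 ± 0.29, adjusted p = 0.0193). Npnt was at 97.4 to 123 CPM in young and 133 to 184 in treated kidneys (interaction −2.12 ± 0.41, adjusted p = 0.0311). Cxcl14 was at 82.1 to 90.0 and 59.0 to 99.9 CPM in kidney (interaction −1.73 ± 0.33, adjusted p = 0.0311). Hunk (−2.59 ± 0.49) and Camkk2 (−1.24 ± 0.25) were the other lung-called genes on this side. The clock genes Dbp and Nr1d1 fell in both tissues, with interactions of −0.90 ± 0.32 (adjusted p = 0.243) and −1.16 ± 0.79 (adjusted p = 0.560). Hlf, at 145 to 188 CPM in young and 128 to 155 in treated kidneys, had an interaction of −1.23 ± 0.30 (adjusted p = 0.106). No gene passed without kidney young replicate 2, 3 or 4 or lung young replicate 1 or 3 (1376 to 1441 at an unadjusted p under 0.05 by edgeR, and 107 by DESeq2 with all libraries), and 286 did without lung ABT-737 replicate 4. Without kidney ABT-737 replicate 3, 4 or 5 the count was 2, 5 and 3, without kidney young replicate 1 or lung young replicate 4 it was 7, without lung young replicate 2 it was 4, and without lung vehicle replicate 5 or lung ABT-737 replicate 3 it was 45 and 41.

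**Figure D5:**
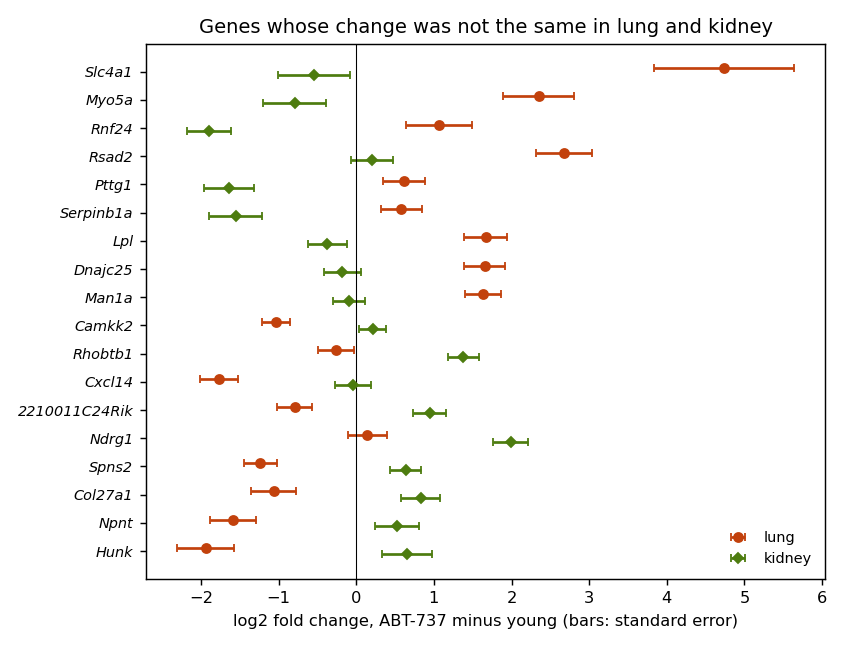
Log2 fold change between ABT-737-treated old (n = 3) and young mice (n = 4) in lung (circles) and kidney (diamonds) on the horizontal axis, for the 18 genes on the vertical axis whose difference between tissues passed, with bars of 1 SE. Slc4a1 stands highest in lung at 4.74 with a kidney value of −0.54, and Spns2 lies at −1.23 in lung and 0.64 in kidney. Most of the Slc4a1 counts in treated lungs came from replicate 3.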

How the data were processed

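Polyadenylated RNA from perfused tissue was prepared as bulk MARS-seq libraries, and the authors deposited raw read counts per gene, with 1 RefSeq transcript per gene and mm10 coordinates. The submitters' processing notes name bcl2fastq, HISAT 0.1.5 and HOMER. Whether reads were counted by strand or collapsed by molecular identifiers is not given in the sources used here, so intervals and floors cover counting error only. All 10 lung libraries were fitted in edgeR 4.0.16 (limma 3.58.1, R 4.3.3) with TMM factors, filterByExpr and the quasi-likelihood test, and a gene was called where its p, adjusted after Benjamini and Hochberg, was under 0.05. Vehicle-treated lungs entered the fit to share its estimate of spread. Lung and kidney were fitted together, 20 libraries, for the interaction. CPM uses normalized library sizes. The step was tested on simulated data.

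Samples were grouped by title and treatment label. The treatment labels of ABT-737 replicates 4 and 5 carry other numbers after ABT, and both were placed by their titles. Each library is labelled as a sample of its own, but no label names the animal, so p-values measure the spread between these samples. The groups, the 47 gene lists and the tests were chosen with earlier results of these data known. Named genes are the 12 highest and 12 lowest called genes with non-overlapping groups, at least 5 CPM in the higher group and counts not identical to another gene's, the genes the study names, and up to 4 called members of a list with the smallest p, or its 2 highest members where none was called. Other genes are examples of a count. A group of 0 counts was set to 3 counts, and ratios for 1 to 3 counts carry 95% exact intervals. Alternatives were DESeq2 1.42.0, its size factors, other count filters, the replicate number as a block, a minimum fold and each library left out. Among the 12 pairs of lung libraries within a group, none differed by as little as sampling noise. Accessions were found in the GRCm38.p6 RefSeq table for 11885 of 11949 genes, of which 11588 lay inside the gene there. Promoter sequences came from RefSeq.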

Additional observations from a re-analysis of the deposited data

Results flagged for a closer look

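A young lung stood apart from the other 3 by Dixon's test in 11 of the 153 gene levels and marker sums that could be tested, where chance flags about 1 in 20. Among genes, the lungs apart were young replicate 1 for C130026I21Rik (1.47 CPM), young replicate 2 for Creld2 (26.4 CPM), Cxcl9 (3.48 CPM), Fcgr4 (8.34 CPM) and Malat1 (1259 CPM), and young replicate 4 for Ccl2 (0.520 CPM), Cd72 (7.28 CPM), Cidea (2.08 CPM) and Derl3 (10.9 CPM). Among sums, they were young replicate 3 for class II presentation (13919 CPM) and young replicate 2 for oxidative phosphorylation (11975 CPM). For C130026I21Rik and Ccl2 the lung apart had 3 counts and 1 count, and the other young lungs had 0. With the others tied at 0 the test flags any value, so these flags carry no information. The old groups of 3 lungs are too small for this test.

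The difference between ABT-737-treated and young mice was not the same in lung and kidney, by the interaction test, for 11 genes called in lung. The lung value was higher for Slc4a1 (5.28 on the log2 scale), Myo5a (3.14), Rsad2 (2.48), Lpl (2.04), Dnajc25 (1.83) and Man1a (1.72). It was lower for Camkk2 (−1.24), Cxcl14 (−1.73), Spns2 (−1.87), Npnt (−2.12) and Hunk (−2.59).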

How the results depend on the processing

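Between ABT-737-treated and young lungs 305 genes passed. The count was 783 by DESeq2 (302 shared), 805 with no filter on low counts, 123 with at least 10 counts in every library, 487 with only young and ABT-737 libraries, and 1 against a minimum log2 fold change of 1. It ranged from 1 to 1399 with single libraries left out. DESeq2's size factors gave 285. Of 2 alternatives chosen after seeing the data, leaving out Rn45s, Malat1 and haemoglobin genes gave 274, and taking out the trend with transcript length 231. The interaction with kidney passed for 18 genes, for 107 by DESeq2, 34 with no filter, 8 with the strict one and 0 against a minimum fold (399 at an unadjusted p under 0.05), and for 0 to 286 with single libraries left out. No direction reversed among called genes under any alternative run. Counts, medians and folds of lists and named genes kept their side of the threshold or moved little in 3545 cases, lost it in 877, gained it in 35 and moved further in 445. The cause was not tested.

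Young and ABT-737 libraries share only the replicate numbers 3 and 4, whose deviations from the group means correlated at 0.03 and 0.15, so the numbers were not taken to pair them. With the replicate number as a block 4 genes passed in lung (Dbp, Nr1d1, Nrgn and Ppbp) and 5 for the interaction. Between ABT-737 and vehicle the same-numbered libraries correlated at 0.18 to 0.43, and the block gave 99 genes against 0. Libraries of unlike number were not compared in this way and no label pairs the animals. These correlations therefore cannot show that the numbers pair mice. Depth limits genes of a few counts, most in ABT-737 replicate 4 with 1046508 counts.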
